A study of Mus musculus with 6 samples.

Results

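The Isg15 conjugation pathway was examined in infarcted mouse hearts injected with miR-19a/19b mimics, as 5 genes of the 26012 in the table of normalized counts: Isg15, Uba7, Ube2l6, Herc6 and Usp18. They were chosen by name for their roles in the pathway, with earlier results of these data known. Isg15 encodes a small protein made of ubiquitin-like domains that is strongly induced by interferon. Like ubiquitin, it is joined to other proteins by a chain of enzymes, in which Uba7 is the activating enzyme (E1), Ube2l6 the conjugating enzyme (E2) and Herc6 the main ligase (E3) in the mouse. Usp18 is the protease that removes Isg15 from its targets, and it also binds the type I interferon receptor and limits its signalling. All these genes are themselves interferon-stimulated genes.

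RNA was sequenced from the ventricles of 6 male C57BL/6 mice that were 8 weeks old when operated on, with 3 hearts in each of 2 groups. Every mouse had a myocardial infarction (MI), made by tying off the left anterior descending coronary artery, and every heart was injected with 10 µg of a synthetic miRNA in a lipid carrier, either a control mimic or miR-19a and miR-19b mimics together. Tissue was taken 4 days after MI. The mimics were put into the muscle wall around the infarct and the RNA came from whole ventricular tissue, so each value is a sum over all its cells, and no hearts without MI were analysed here.

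Reads counted on genes came to between 19398196 and 23645308 per heart. The lowest count of any member in any heart was 157 reads, for Herc6 in miR-19a/19b mimic replicate 1, so counting error was below the spread between hearts of a group. In whole tissue, fewer cells of a type and less RNA per cell cannot be told apart. The 8 cardiomyocyte markers were all detected in the tissue labelled heart. Their summed normalized count was 271791 in miR-19a/19b mimic replicate 3 and between 442979 and 801632 in the other 5 hearts. The normalized counts of 6 skeletal muscle genes summed to 2103 for miR-19a/19b mimic replicate 1, and no other heart had more than 70.9. Results were therefore also computed without each heart.

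The injected miRNAs are shown because their seed was searched for in the members. The mature mouse sequences (RefSeq, GRCm38.p6) are written 5′ to 3′ with bases 2 to 8, the seed, in capitals, and they differ at 1 position, the eleventh base. The first listed locus of each is on the plus strand of chromosome 14, miR-19a-3p at chr14:115044048-115044070 and miR-19b-3p at chr14:115044358-115044380. Other loci were not looked up.
miR-19a-3p: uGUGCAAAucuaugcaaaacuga
miR-19b-3p: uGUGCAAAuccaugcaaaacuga

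The longest annotated 3′ UTR of each gene was searched for TTTGCAC, which pairs with bases 2 to 8, and TTGCACA, which pairs with bases 1 to 7. A match of 7 bases to either was held by 2 of the 5 members and by 19.35% of all 15866 tested genes with a 3′ UTR. Both members held TTGCACA, which leaves base 8 of the seed unmatched. Herc6 had 1 match at chr6:57663033-57663039, in a 3′ UTR of 1718 bases. Usp18 had 1 match at chr6:121270908-121270914, ending 3 bases before the end of a 3′ UTR of 400 bases. Isg15, Uba7 and Ube2l6 had 0 matches of 7 bases and 0 of the shared 6 bases TTGCAC in 3′ UTRs of 160, 2608 and 1020 bases. The matches are shown in capitals within the surrounding transcript (GENCODE M21, GRCm38, plus strand, chr6:57663022-57663051 and chr6:121270897-121270917). A match of letters is a description and does not show binding.
Herc6: ttttacttgaaTTGCACAgtttttgagata
Usp18: aataaacattaTTGCACActa

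The members share induction by interferon, so the promoter windows in RefSeq (GRCm38.p6, 250 bases before to 50 after the start of transcription) were searched on both strands for the core of the interferon-stimulated response element, GAAANNGAAA, to which the interferon-activated complex with Stat2 and Irf9 binds. Of the 4 members with a window, Isg15 held 3 matches, which overlap each other between positions -78 and -57 from the start, and Uba7, Ube2l6 and Herc6 held 0. The share was 3.44% among all 32851 windows. The gamma-activated site TTCNNNGAA was found in 0 of the 4 windows and in 8.3% of all. The absence of these letters from a window says nothing about the factor. The Isg15 window, chr4:156200769-156201068 on the minus strand, is printed with the matches in capitals.
Isg15 promoter: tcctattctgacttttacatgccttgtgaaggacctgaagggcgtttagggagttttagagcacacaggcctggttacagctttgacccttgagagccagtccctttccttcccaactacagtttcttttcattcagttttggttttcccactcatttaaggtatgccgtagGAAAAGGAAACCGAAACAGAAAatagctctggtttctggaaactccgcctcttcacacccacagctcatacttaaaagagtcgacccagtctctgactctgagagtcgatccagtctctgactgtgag

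To ask how the pathway differed between the groups, limma was fitted to log2(normalized count + 1) of all 21126 genes whose normalized counts averaged at least 1. A normalized count is the number of reads on a gene divided by a size factor for the library. All 5 members had a lower mean in miR-19a/19b mimic hearts, between 22.1% and 44.6% below the control mean. The modifier Isg15 and the protease Usp18 differed most and the E2 enzyme Ube2l6 least. At an adjusted p under 0.05 in limma, 0 of the 5 members were called, and 0% of all genes tested were. On recovered reads, DESeq2 and edgeR's exact test also called 0 of the members, but 28 lower genes each over the whole table. At an unadjusted p-value under 0.05, 4 of the 5 were lower, all but Ube2l6, against 2.63% of all genes tested that were lower and 1.39% that were higher. The 2 groups did not overlap for the same 4 members, with the miR-19a/19b mimic hearts below, and for 5.3% of all genes tested.

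**Figure D1:**
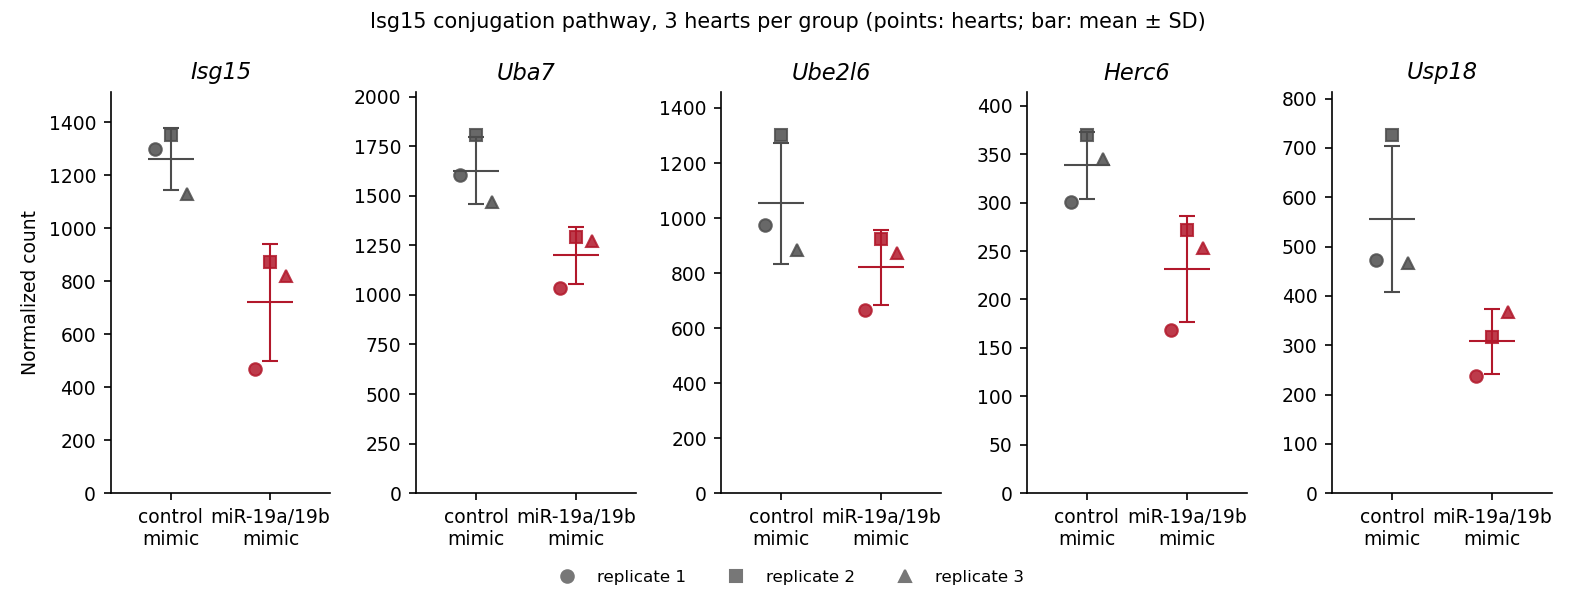
Normalized count (y axis, starting at 0) of each member in control mimic hearts and miR-19a/19b mimic hearts. Points are hearts, with the marker giving the replicate number, and bars are the mean ± SD of 3 hearts. In Isg15, Uba7, Herc6 and Usp18 all 3 miR-19a/19b mimic hearts lie below all 3 control hearts, and in Ube2l6 the groups overlap.

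The modifier itself, Isg15 (ENSMUSG00000035692), lies on chromosome 4 from 156199424 to 156200818 on the minus strand and has 1 annotated transcript of 2 exons. It had 1299, 1352 and 1129 normalized counts in control mimic replicates 1, 2 and 3, while the 3 miR-19a/19b mimic hearts had 468, 873 and 819. The highest miR-19a/19b mimic heart was below the lowest control heart, and miR-19a/19b mimic replicate 1 stood lowest at 37.2% of the control mean. The means were 1260 ± 117 (SD, n = 3) and 720 ± 220, a log2 fold change of -0.85 (95% confidence interval -1.35 to -0.36, unadjusted p = 0.00359, adjusted p = 0.881 in limma), with all 3 miR-19a/19b mimic hearts lower. The log2 fold change was -0.57 when miR-19a/19b mimic replicate 1 was left out. With miR-19a/19b mimic replicate 3 left out it was -0.97, with an adjusted p of 0.0329 in limma, a setting that called 164 genes lower and 383 higher in all (0.774% and 1.81% of those tested). Over the settings that kept all 6 hearts, the adjusted p ranged from 0.134 to 1.0.

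Uba7 (ENSMUSG00000032596), the E1 enzyme that activates Isg15, lies on chromosome 9 from 107975505 to 107984060 on the plus strand. Its normalized counts were 1604, 1806 and 1470 in the control mimic hearts and 1035, 1290 and 1272 in the miR-19a/19b mimic hearts. The groups were separate, with the gap between them smaller than for Isg15. The log2 fold change was -0.44 (95% confidence interval -0.73 to -0.16, unadjusted p = 0.00655, adjusted p = 0.968 in limma), from 1627 ± 169 to 1199 ± 142 normalized counts.

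Ube2l6 (ENSMUSG00000027078), the E2 enzyme, lies on chromosome 2 from 84798828 to 84810335 on the plus strand. It had 976, 1302 and 883 normalized counts in control mimic hearts and 666, 923 and 872 in miR-19a/19b mimic hearts. The groups overlapped, since miR-19a/19b mimic replicate 2 was above control mimic replicate 3. The log2 fold change of -0.35 (95% confidence interval -0.75 to 0.04, unadjusted p = 0.071, adjusted p = 1.0 in limma) was within the spread between hearts, and a difference as large as that of Uba7 is inside its interval. Without control mimic replicate 2, the highest heart, it was -0.19.

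Herc6 (ENSMUSG00000029798), the ligase, lies on chromosome 6 from 57581000 to 57664632 on the plus strand and had the fewest reads of the 5. Its normalized counts were 301, 370 and 345 in control mimic hearts and 169, 272 and 253 in miR-19a/19b mimic hearts. The groups did not overlap, and miR-19a/19b mimic replicate 1 was again lowest. The log2 fold change was -0.57 (95% confidence interval -1.0 to -0.15, unadjusted p = 0.0142, adjusted p = 1.0 in limma). Without control mimic replicate 2 the unadjusted p was 0.0547, and the log2 fold change was -0.36 when miR-19a/19b mimic replicate 1 was left out.

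Usp18 (ENSMUSG00000030107), the protease that reverses the conjugation, lies on the same chromosome from 121245906 to 121270917 on the plus strand. It had 472, 726 and 467 normalized counts in control mimic hearts and 238, 318 and 367 in miR-19a/19b mimic hearts. Every miR-19a/19b mimic heart was lower than every control heart, while control mimic replicate 2 stood well above the other control hearts. The log2 fold change was -0.84 (95% confidence interval -1.32 to -0.36, unadjusted p = 0.00328, adjusted p = 0.877 in limma), from 555 ± 148 to 308 ± 65.4 normalized counts. It was -0.63 without control mimic replicate 2, and -0.98 with an adjusted p of 0.027 in limma without miR-19a/19b mimic replicate 3. With all 6 hearts, the adjusted p ranged over the settings from 0.117 to 1.0.

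Some reads of these genes may be shared with others, and strand was not stated to be used in counting. Gm45193 shares 1269 bases of exon with Herc6, 13.7% of its exon bases, on the same strand, and Gm20661 shares 233 with Uba7, 3.48%. On the other strand, the lincRNA Gm44148 shares 124 bases with Usp18 and is listed at 0 in all 6 hearts. The transcript of Isg15 aligns over 482 bases at 95.2% identity to AC151275.1, the longest of 42 genes that match a part of it, the others over at most 91 bases. A part of the Ube2l6 transcript aligns to 15 other genes, among them Smchd1 over 290 bases at 92.1%, Ift46 over 260 at 96.5% and D10Wsu102e over 498 at 90.6%, with mean normalized counts of 1003, 553 and 433. The counts of these members are uncertain to that extent.

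The members varied together from heart to heart. Averaged over the 5 members, the log2 level relative to control mimic hearts was -0.08, 0.23 and -0.14 in control mimic replicates 1, 2 and 3, and it was -0.98, -0.42 and -0.44 in the miR-19a/19b mimic hearts in the same order of numbers. Control mimic replicate 2 was highest for every member, and miR-19a/19b mimic replicate 1 was lowest for every member. Pearson's r between pairs of members across the 6 hearts, on log2 values, lay between 0.864 for Ube2l6 with Herc6 and 0.973 for Uba7 with Usp18. These hearts include the difference between the groups, so the values are a description. Within control mimic hearts, the SD was 9.25% of the mean for Isg15 and 26.7% for Usp18. Within miR-19a/19b mimic hearts, it was 30.6% for Isg15 and 11.9% for Uba7.

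Markers of some blood cells stood lower in the same group of hearts as the members. The summed normalized count of 4 monocyte markers was between 4385 and 5889 in control hearts and between 2689 and 3842 in miR-19a/19b mimic hearts, without overlap, and 3 of the 4 genes (Ly6c2, Ccr2 and Plac8) were lower at an unadjusted p under 0.05. The 6 T cell markers summed to 151 to 221 and 117 to 141, with 2 of the 6 (Lck and Trac) lower at that p. The 4 NK cell markers summed to 102 to 204 and 52.7 to 99.0, with 2 of the 4 (Gzma and Eomes) lower. Of all genes tested, 2.63% were lower and 1.39% higher at that p. The 8 macrophage markers, at 68684 to 79084 and 55858 to 86666, and the 6 neutrophil markers, at 1697 to 2035 and 838 to 2581, overlapped between the groups, with 0 of 8 and 1 of 6 genes lower at that p. So did the 4 plasmacytoid dendritic cell markers, at 53.1 to 56.6 and 35.4 to 53.8, the 4 B cell markers, at 133 to 160 and 113 to 227, and the cardiomyocyte, fibroblast, endothelial and erythrocyte lists. The macrophage, neutrophil and B cell overlap came from miR-19a/19b mimic replicate 3 alone, at 86666, 2581 and 227. Replicates 1 and 2 of that group were below every control heart, at 55858 and 65064, 838 and 1453, and 113 and 121. Their cardiomyocyte sums, 801632 and 714214, were above every control heart, and that of replicate 3, 271791, was below. The plasmacytoid dendritic cell genes had few counts, with 0 of the 4 lower at that p. Their log2 fold changes were -0.67 for Siglech, -0.49 for Ccr9, -0.17 for Klk1 and 0.08 for Pacsin1, the gene with the most counts. None of the markers was listed at 0 in all hearts. The part of these cells in the values of the members was not tested.

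**Figure D2:**
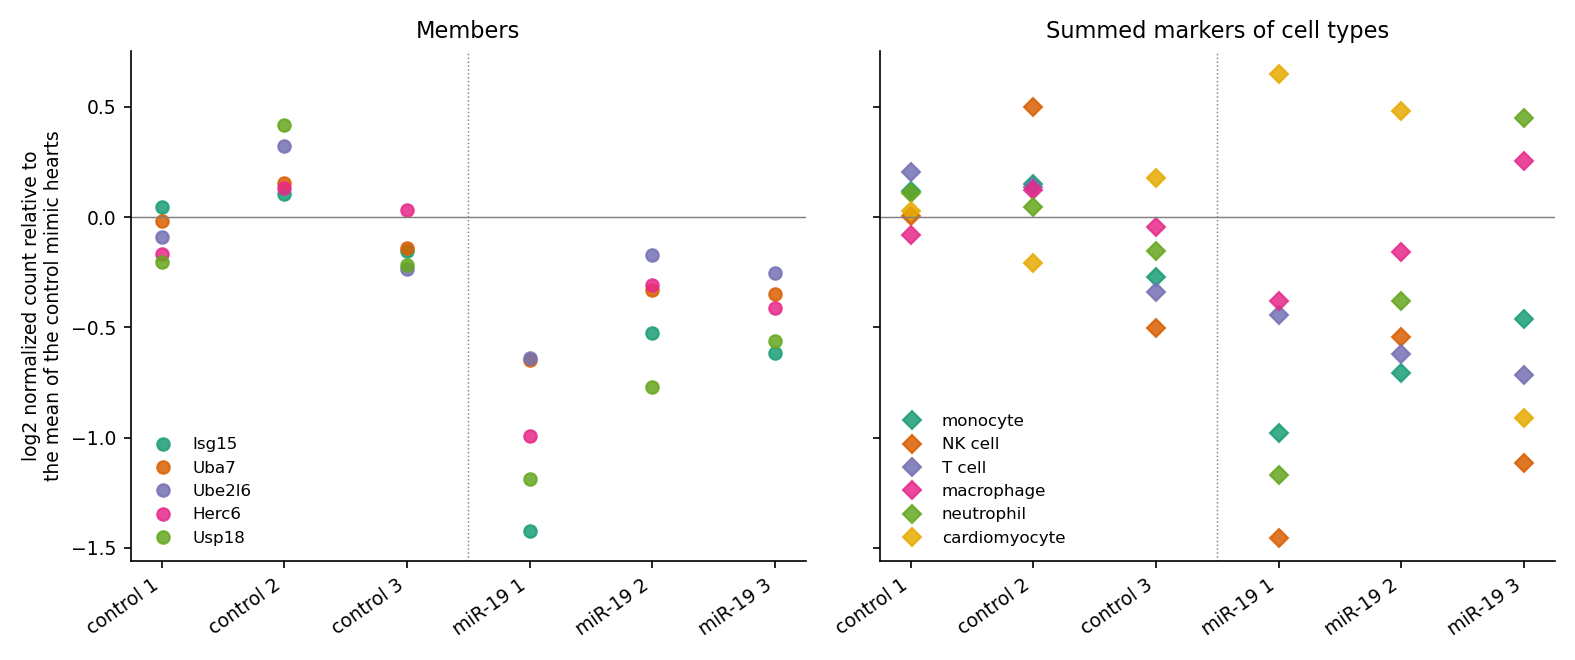
Log2 normalized count of each member (left) and log2 of the summed normalized counts of 6 cell type marker lists (right), each relative to the mean of the control mimic hearts, by heart. All members are at or below -0.17 in the 3 miR-19a/19b mimic hearts, and the monocyte, T cell and NK cell sums there lie below every control heart. The macrophage and neutrophil sums do so in miR-19a/19b mimic replicates 1 and 2 but not in replicate 3. The cardiomyocyte sums lie above every control heart in replicates 1 and 2 and below in replicate 3.

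Since a ratio of 2 genes in the same heart is free of the size factor, the balance between members was compared in 10 within-heart ratios with exact permutation tests, two-sided, whose smallest possible p is 0.1 for 3 hearts against 3. Isg15 was lower relative to all 3 enzymes that conjugate it. The log2 ratio of Isg15 to Uba7 was -0.30, -0.42 and -0.38 in control mimic hearts and -1.14, -0.56 and -0.63 in miR-19a/19b mimic hearts. The difference of -0.41 left the groups without overlap (exact p = 0.1, adjusted over the 10 ratios p = 0.2), and it was -0.23 when miR-19a/19b mimic replicate 1 was left out. The log2 ratio of Isg15 to Ube2l6 was 0.41, 0.05 and 0.35 against -0.51, -0.08 and -0.09, a difference of -0.50 (exact p = 0.1, adjusted p = 0.2). For Isg15 to Herc6 the difference was -0.28, and the nearest hearts of the 2 groups, at 1.71 and 1.69, all but met (exact p = 0.1, adjusted p = 0.2). It was -0.18 when control mimic replicate 1 was left out.

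For the modifier and the protease, the groups overlapped. The log2 ratio of Isg15 to Usp18 was 1.46, 0.90 and 1.27 in control mimic hearts and 0.97, 1.46 and 1.16 in those given miR-19a/19b mimics, a difference of -0.01 (exact p = 0.9). With each heart left out, this difference ran from -0.17 to 0.11, so its sign was not determined. Usp18 was also lower relative to the E1 and E2 enzymes, by a difference of 0.40 for the log2 ratio of Uba7 to Usp18 and of 0.49 for that of Ube2l6 to Usp18, both without overlap (exact p = 0.1, adjusted p = 0.2). The log2 ratio of Ube2l6 to Usp18, for example, was 1.05, 0.84 and 0.92 in control mimic hearts and 1.48, 1.54 and 1.25 in miR-19a/19b mimic hearts. The other 4 ratios overlapped, with differences between -0.09 and 0.27, and between -0.17 and 0.39 when any 1 heart was left out. None of the 10 passed at an adjusted p under 0.05, which this number of hearts cannot reach.

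**Figure D3:**
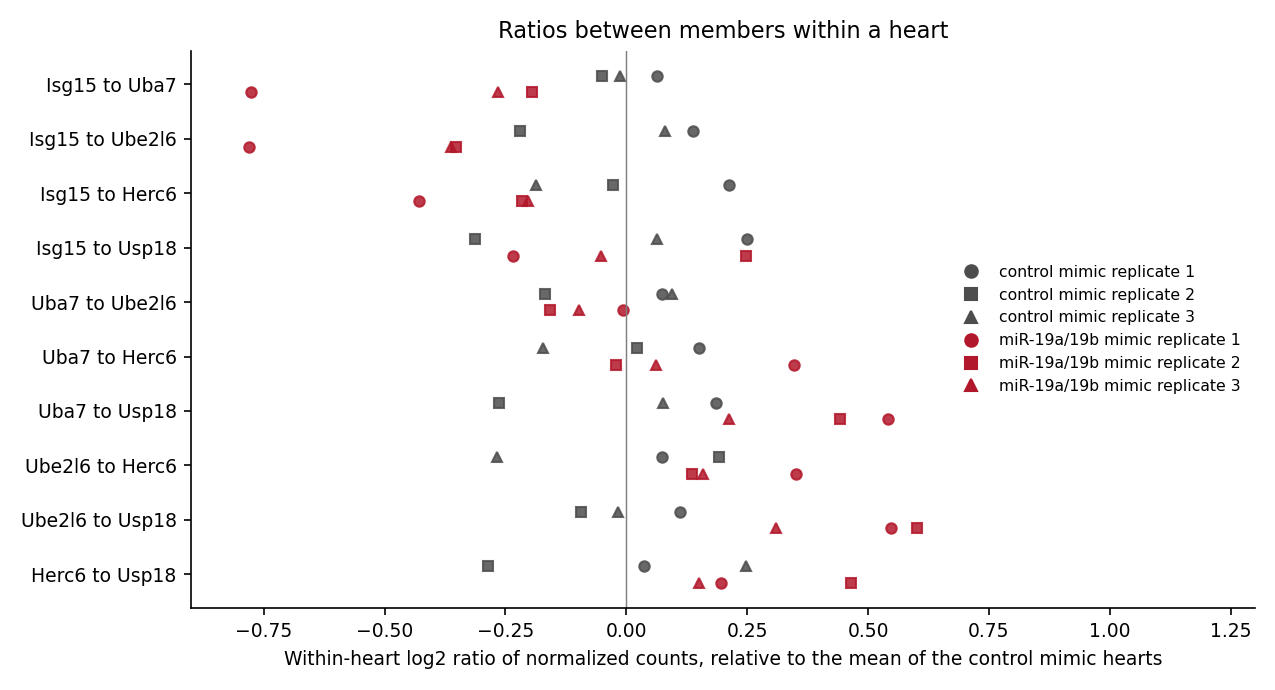
Within-heart log2 ratio of normalized counts for the 10 pairs of members (x axis, relative to the mean of the control mimic hearts), with a point for each heart. The miR-19a/19b mimic hearts lie below all control hearts for Isg15 to Uba7, Ube2l6 and Herc6, and above them for Uba7 and Ube2l6 to Usp18, while the groups overlap for Isg15 to Usp18.

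Levels of different genes can be compared only per length. Per kilobase of all annotated exons, Isg15 had the highest level in control mimic hearts, at 1666 ± 154 normalized counts per kilobase (SD, n = 3). It was followed by Ube2l6 at 528 ± 110, Uba7 at 243 ± 25.3, Usp18 at 199 ± 53.1 and Herc6 at 36.4 ± 3.77. Uba7 and Usp18 were neighbours whose ranges overlapped in control hearts, and the other neighbours did not overlap. In miR-19a/19b mimic hearts the order was the same, at 953 ± 291, 411 ± 68.1, 179 ± 21.3, 110 ± 23.4 and 24.9 ± 5.92, and there Uba7 and Usp18 did not overlap. Within each heart, Isg15 was at 2.74 to 3.51 times the level of Ube2l6 per kilobase in control mimic hearts and at 1.86 to 2.5 times in miR-19a/19b mimic hearts. The length used matters, since the exons of all 15 transcripts of Uba7 span 6692 bases and its longest transcript 3620. Per kilobase of the longest transcript, the control mean was 449 for Uba7, 675 for Ube2l6, 71.0 for Herc6 and 313 for Usp18, which kept the order.

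**Figure D4:**
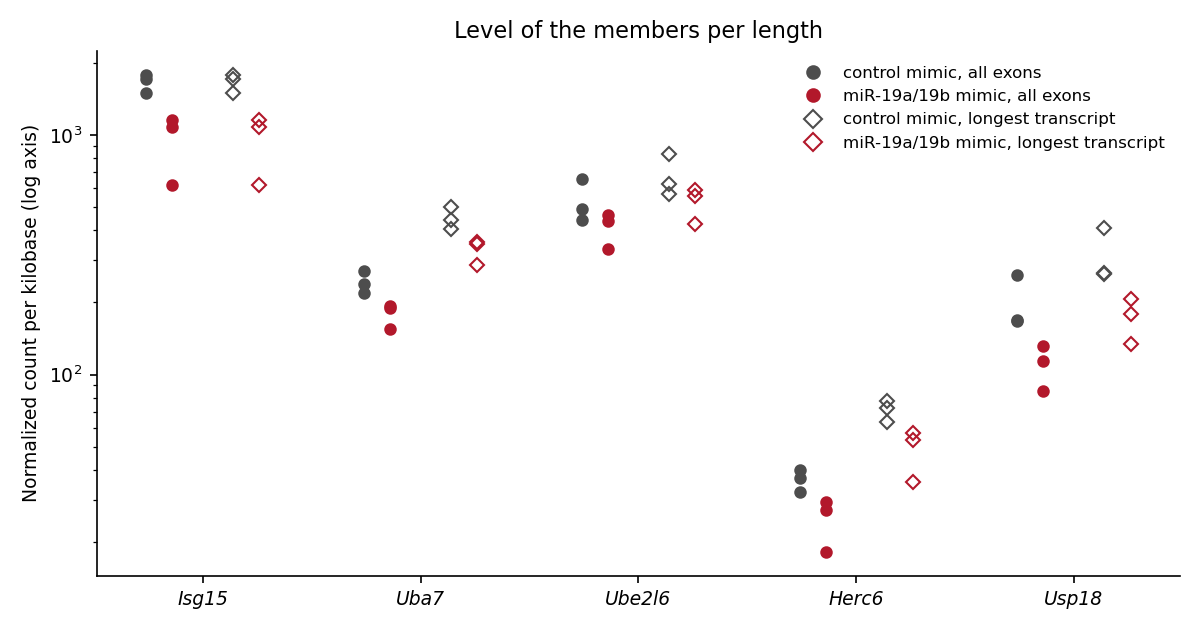
Normalized count per kilobase (y axis, log scale) of each member in each heart, per length of all annotated exons (filled circles) or of the longest transcript (open diamonds). Isg15 is highest and Herc6 lowest with either length in both groups.

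The pathway reaches beyond these 5 genes. A list of 13 other genes of Isg15 biology held further ligases, other proteases that act on Isg15, partners of Usp18 and the receptor of free Isg15. Of these, 2 were lower at an unadjusted p under 0.05 and 0 higher, against 2.63% and 1.39% of all genes tested. Their median log2 fold change was -0.10, against 0.00 for all genes tested. Stat2, the factor that brings Usp18 to the interferon receptor, had a log2 fold change of -0.59 (unadjusted p = 0.0022 in limma), from 2027 ± 177 to 1354 ± 223 normalized counts. Itgal, a chain of the LFA-1 integrin to which free Isg15 binds on lymphocytes, had one of -0.67 (unadjusted p = 0.00493 in limma), from 280 ± 39.3 to 177 ± 38.8. Its partner chain Itgb2 was at -0.15, with 3450 ± 48.0 and 3209 ± 977 normalized counts. The ligase Arih1 was at -0.10, and Usp13, the member of this list with the highest mean, at -0.04. Trim25, another ligase for Isg15, named after its values were seen, was at -0.21 (95% confidence interval -0.46 to 0.04). The other proteases Usp2, Usp5, Usp14, Usp16 and Usp21 lay between -0.08 and 0.10, against -0.84 for Usp18. The 95% confidence intervals of Usp13 and Usp2 were wide, from -0.81 to 0.72 and from -0.65 to 0.81. Without miR-19a/19b mimic replicate 3, 6 of the 13 were lower at an unadjusted p under 0.05, but so were 6.08% of all genes tested, and 8.39% were higher.

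Among 13 genes whose proteins are reported to carry Isg15, the RNA of 5 was lower at an unadjusted p under 0.05 and that of 0 higher. Of all genes tested, 2.63% were lower and 1.39% higher at that p. The median log2 fold change of the list was -0.13. Mx1, an antiviral GTPase, was at -0.85, the RNA sensor genes Ifih1 and Ddx58 at -0.57 and -0.54, and the RNA-activated kinase Eif2ak2 at -0.45. These 4 are themselves interferon-stimulated genes. Among the most abundant of this list, Jak1 and Mapk3 were at -0.07 and 0.12, and their 95% confidence intervals included 0.

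Of the 15 genes upstream of the pathway, 14 were tested. At an unadjusted p under 0.05, 4 were lower and 0 higher, against 2.63% and 1.39% of all genes tested. The median log2 fold change of the 14 was -0.14. Transcription factors were among the lower ones. Irf7, the main regulator of interferon genes, was at -0.73 (5031 ± 936 and 3021 ± 526 normalized counts), Stat2 at -0.59 and Irf9 at -0.33. The factors Irf1 and Irf3, named after their values were seen, were at -0.13 and 0.07, with 95% confidence intervals that included 0. The receptors and kinases Ifnar1, Ifnar2, Ifngr1, Ifngr2, Jak1, Jak2 and Tyk2 lay between -0.21 and 0.03. Ifnb1, the gene of interferon beta, had 5.86 normalized counts in control mimic replicate 2 and is listed at 0 in the other 5 hearts. It fell below the filter and was not tested. Ifng had between 0.934 and 2.06 normalized counts in all 6. Without miR-19a/19b mimic replicate 3, 7 of the upstream genes were lower at an unadjusted p under 0.05, against the same 6.08% of all genes tested.

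The nearest relatives of the members and the machineries of other ubiquitin-like proteins were measured for comparison, and the difference between lists was not tested. Of 7 tested paralogues, 0 were at an unadjusted p under 0.05 in either direction in limma, with log2 fold changes from -0.21 to 0.08 and a median of -0.03. Uba1, the E1 enzyme of ubiquitin, was at -0.03 and Ube2l3, the closest relative of Ube2l6, at -0.14 (95% confidence interval -0.48 to 0.19). The lowest of the 7, Uba6, was at -0.21 (95% confidence interval -0.45 to 0.02). Its groups did not overlap, with the miR-19a/19b mimic hearts below, as for 5.3% of all genes tested. Uba6 and Ube2l3 were named after their values were seen. The large ligases Herc1 and Herc2 were at 0.08 and -0.10. Of 19 genes of the SUMO, Nedd8, Ufm1, Urm1, Atg12 and Fat10 systems, 0 were at an unadjusted p under 0.05, and the median log2 fold change was 0.04. Among the most abundant, Ube2m and Nedd8 were at 0.09 and 0.13, and Ubd, which encodes the interferon-inducible modifier Fat10, had only 2.11 ± 2.0 and 2.78 ± 3.14 normalized counts.

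**Figure D5:**
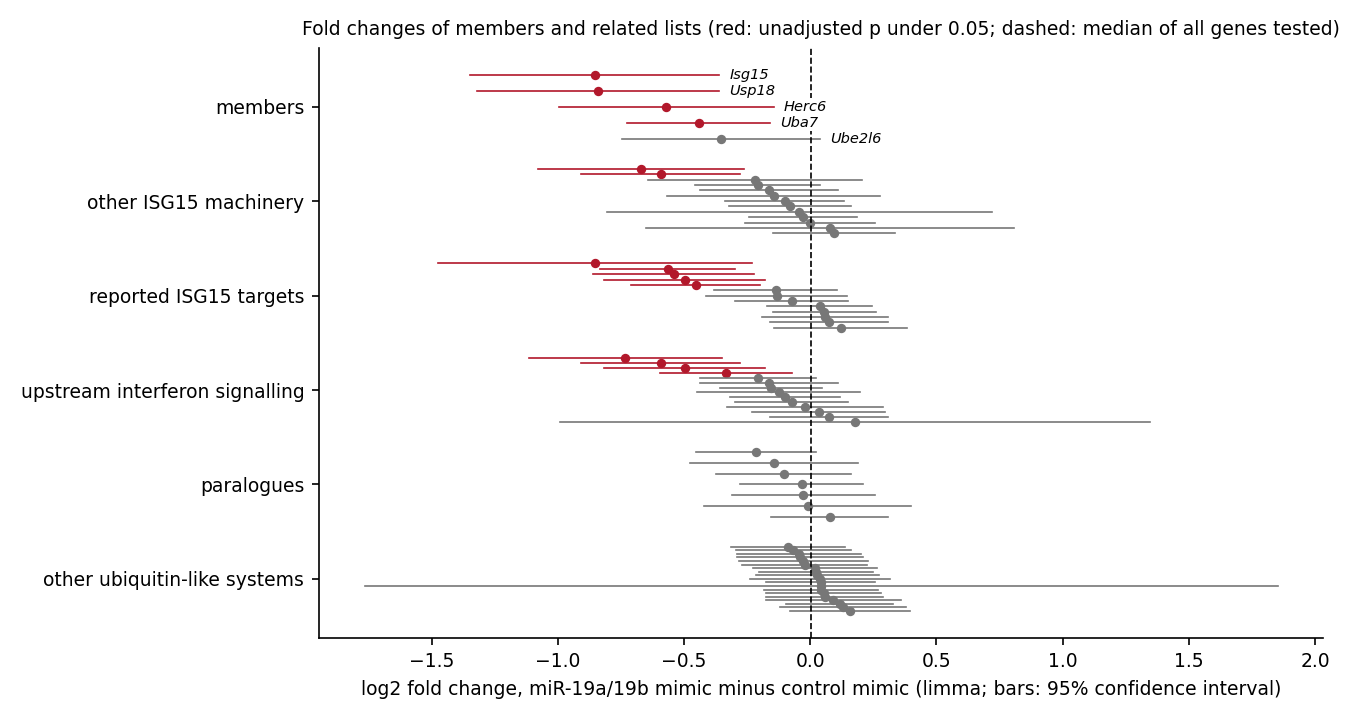
Log2 fold change (x axis, miR-19a/19b mimic minus control mimic) with its 95% confidence interval from limma for each gene of the members and of 5 related lists. Red marks an unadjusted p under 0.05, and the dashed line is the median of all genes tested. Red points stand in the members, other Isg15 machinery, targets and upstream lists, 4, 2, 5 and 4 of them, and in neither of the last 2 lists.

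To place Isg15 among all genes, the 12736 genes averaging at least 50 normalized counts were ranked by Pearson's r with it across the 6 hearts, on log2 values. The 10 most alike were Zbp1, Gbp9, Dhx58, Ctsw, Mnda, Mx2, Ms4a4c, Psmb9, Slfn4 and Rsad2, with r from 0.983 to 0.997. Uba7 ranked 29 (r = 0.967), Herc6 39 (r = 0.959), Usp18 133 (r = 0.910) and Ube2l6 258 (r = 0.868). Zbp1, at the head, had log2 values of 9.70, 9.89 and 9.54 in control mimic hearts and 8.12, 9.12 and 8.93 in miR-19a/19b mimic hearts. With 6 hearts this order is loose, since between 1 and 6 of the 10 genes stayed among the first 10 when any 1 heart was left out.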

How the data were processed

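Ventricular polyadenylated RNA of 6 hearts, 3 per group, was sequenced as paired-end reads. The authors removed adapter and low-quality reads, aligned with STAR 2.5.1b and counted reads per gene with HTSeq 0.6.0. The deposited values are a signal, reads per gene scaled by the library's size factor (0.905 to 1.16). In every library 100% of values were whole multiples of 1 read within 0.01 read, so reads could be recovered. The deposited fold changes and p-values, and a list of dysregulated genes, are the authors' own comparison and were not used. The labels name mm9, while coordinates in the table are those of GRCm38 for all 5 members, so GENCODE M21 could be used. The labels name DESeq2 1.10.1 and the study's methods edgeR.

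Groups came from the sample titles. Genes averaging at least 1 normalized count (21126) were fitted with limma 3.58.1 (R 4.3.3, trended prior) on log2(normalized count + 1), which understates changes of low genes, and p-values were adjusted by Benjamini and Hochberg over all of them. The smallest adjusted p was 0.396. In simulated reads with 200 genes changed 2-fold, limma recovered 88.5% of them, with 7 calls among the unchanged genes of 21077 tested. The share holds for the simulated reads only. It is no estimate of the power in the real hearts, whose spread within groups is given below. Alternatives were DESeq2 1.42.0, edgeR 4.0.16 and limma-voom on recovered reads, other filters, 0.1 as pseudocount, a block for the replicate number, and each heart left out. The members and lists were chosen with earlier results of these data known. Named were the members, genes of the lists at an unadjusted p under 0.05, up to 3 of the most abundant of each list, and the 10 genes most like Isg15. Further genes of the lists, named by range or level, were chosen after their values were seen, and some that the rule names are counted in their lists but not reported here. Usp41 was not found among the gene names. Replicates are separate hearts. Within groups, their reads differed beyond sampling noise, with a chi-square of 10.3 to 135 for each degree of freedom.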

Additional observations from a re-analysis of the deposited data

How the results depend on the processing

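All 5 members were lower in miR-19a/19b mimic hearts under each of the 15 alternatives, and between 3 and 5 of them were so at an unadjusted p under 0.05. Between 0 and 2 were called at an adjusted p under 0.05, the 2 being Isg15 and Usp18 without miR-19a/19b mimic replicate 3, a setting in which 164 genes were called lower and 383 higher over all genes. With each heart left out, the log2 fold change ran from -1.02 to -0.57 for Isg15, from -0.51 to -0.34 for Uba7, from -0.47 to -0.19 for Ube2l6, from -0.70 to -0.36 for Herc6 and from -0.98 to -0.63 for Usp18. Over all genes in limma, 0 were called lower and 0 higher, with 555 lower and 293 higher at an unadjusted p under 0.05. With each heart left out these were 0 to 164, 0 to 383, 369 to 1289 and 208 to 1778. DESeq2 called 28 lower and 1 higher and edgeR's exact test 28 lower and 2 higher, while the quasi-likelihood test and limma-voom called 0. Genes higher at an unadjusted p under 0.05 were 177 with DESeq2 and 146 with at least 10 normalized counts in every heart, where fewer genes are tested. Without each heart in turn, lower genes were 2 to 6 of the other Isg15 machinery and 3 to 7 of the upstream list. The log2 ratio of Isg15 to Usp18 ran from -0.17 to 0.11, and so changed sign. By Spearman's rho, 6 of the 10 genes most like Isg15 were among the 37 tied at the highest value, and 1 to 6 stayed among the 10 with a heart left out. The level per kilobase of the longest transcript moved to 449 for Uba7, 675 for Ube2l6, 71.0 for Herc6 and 313 for Usp18. Except where named, the cause was not tested.

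For hearts with the same replicate number, the deviations from the group means correlated at -0.01, -0.02 and -0.11. These values show no pairing by number, but with 3 hearts per group they cannot exclude one. With the replicate number as a block, 5 members were lower at an unadjusted p under 0.05 and 0 were called. Of all 21126 genes tested in that setting, 434 were lower and 207 higher at that p. The 3 hearts per group limit the exact tests to a p of 0.1 or more.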
